A study of Homo sapiens with 14 samples.

Results

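The 60 genes described here act in mitosis, at the kinetochore and on the spindle. They were chosen by name, and each was read from 1 probe set, the one with the highest mean log2 signal over the 14 arrays among the probe sets annotated to that gene alone. A probe set was found for 59 of the 60 genes, and these 59 all passed the filter on low signals, out of 7720 genes tested. ANLN, a scaffold of the cytokinetic ring, was not measured here. By role the genes fell into 8 sets: cyclin B, CDK1 and the anaphase-promoting complex (10 genes), the spindle checkpoint (5), mitotic kinases and the chromosomal passenger complex (6), kinetochore and centromere (8), spindle motors (11), spindle assembly factors (7), cohesin release, condensin and chromosome structure (9), and cytokinesis and other genes (4).

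Cells enter mitosis when cyclin B and CDK1 become active. Spindle microtubules then capture chromosomes at kinetochores, and the checkpoint holds back the anaphase-promoting complex (APC/C), a ubiquitin ligase, until every chromosome is attached. The APC/C and its activator CDC20 then mark securin and cyclin B for destruction, the cohesin that holds sister chromatids is cleaved, and the cell divides. Most of these genes are transcribed late in the cell cycle. The DREAM complex represses them in resting cells, and B-MYB and FOXM1 with the MuvB core activate them in G2, through promoter elements named CHR and CCAAT. E2F1 acts mainly on genes of the G1/S transition, and FOXO factors are forkhead proteins linked to cell cycle arrest.

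The cells were U2OS ER-E2F1, a human osteosarcoma line that carries E2F1 fused to an estrogen receptor domain, and OHT (4-hydroxytamoxifen) activates that fusion. Every group carried ER-E2F1 and a lentiviral hairpin, and every group had been starved of serum for 24 h, starting 24 h after infection. The hairpin was scrambled, or it was shFOXO33 or shFOXO707, of which either one is directed against FOXO1 and FOXO3 together. OHT was given at 20 nM for 6 h. Scrambled cells had 4 arrays without and 4 arrays with OHT, and each FOXO hairpin had 1 array without and 2 arrays with OHT. Knockdown below means both hairpins pooled, with 2 arrays without and 4 arrays with OHT. The groups had no cells that received OHT but lacked ER-E2F1, so effects of E2F1 and of OHT itself cannot be told apart. Signals are MAS5 intensities in arbitrary units, differences are on the log2(signal + 16) scale, and the filter kept genes with a mean log2 value above 6.57. No source used here says whether the line was 1 clone. Nor do the labels say that the replicates came from separate cultures, and p-values then measure only the spread between these arrays, which may be technical.

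FOXO1 signals were 92.4 to 112 on scrambled arrays without OHT and 456 to 533 with it, and FOXO3 signals were 415 to 510 and 1740 to 1840. With OHT, FOXO1 stood at 32.4% of the scrambled mean in shFOXO33 cells and at 47.1% in shFOXO707 cells, and FOXO3 at 17.1% and 45.1%. On the single arrays without OHT, FOXO1 stood at 47.7% and 37.9% and FOXO3 at 30.7% and 60.9%. Both targets were therefore lower on every hairpin array than on the scrambled arrays of the same treatment. FOXO1 signals on the hairpin arrays without OHT, 49.2 and 39.1, lay below the filter signal of 79.1. Of 8 osteoblast marker genes on the array, 6 passed the filter, COL1A1 and SPARC among them, and RUNX2 and IBSP did not. All 4 blood cell markers stayed below the filter. Of 7 epithelial markers, 3 passed (EPCAM, KRT8 and KRT18), and CDH1 did not. Summed epithelial signals were 6790 to 7350 in scrambled cells without OHT and 5180 to 5440 with it, and 4770 to 7270 and 3480 to 6230 in knockdown cells without and with OHT. Summed osteoblast marker signals were 19800 to 20300, 17200 to 18100, 11300 to 19300 and 9080 to 17100 in the same groups, and summed blood cell signals 183 to 206, 135 to 168, 209 to 222 and 153 to 227. No marker was at 0. All 3 sums were lower with OHT in scrambled cells, with no overlap. With knockdown the osteoblast sum was lower with and without OHT and the blood cell sum higher without OHT, with no overlap, while the epithelial range overlapped the scrambled one without OHT and reached both below and above it with OHT. The part of these markers in the results on mitotic genes was not tested. The 3'/5' signal ratio of ACTB, a sign of RNA integrity, was 2.04 and 1.95 on the arrays of shFOXO707 with OHT and 1.49 to 1.74 on the other 12.

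Promoter sequences of these genes show what they share beyond their names. RefSeq promoters (GRCh38.p14, from 250 bases before to 50 bases after the start) were matched for 51 of the 60 genes. The CHR element was searched as TTTGAA, the CCAAT box as CCAAT, the E2F site as TTTGGCGC or TTTCGCGC and the forkhead site as GTAAACA, each on both strands. None of these words contains another, and each was counted by itself, so matches that overlap count for both. TTTGAA occurred in 36 of 51 promoters (70.6%), against 15.4% of the 27305 promoters in the table. CCAAT occurred in 39 (76.5% against 35.7%), and both words in 29 (56.9% against 6.08%). The E2F words occurred in 3 (5.88% against 1.18%) and the forkhead word in 1 (1.96% against 3.41%). Of 25 matched promoters of G1/S and DNA replication genes, TTTGAA occurred in 4.0% and the E2F words in 32.0%. A match is a description of letters, not of a bound site.

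**Figure D1:**
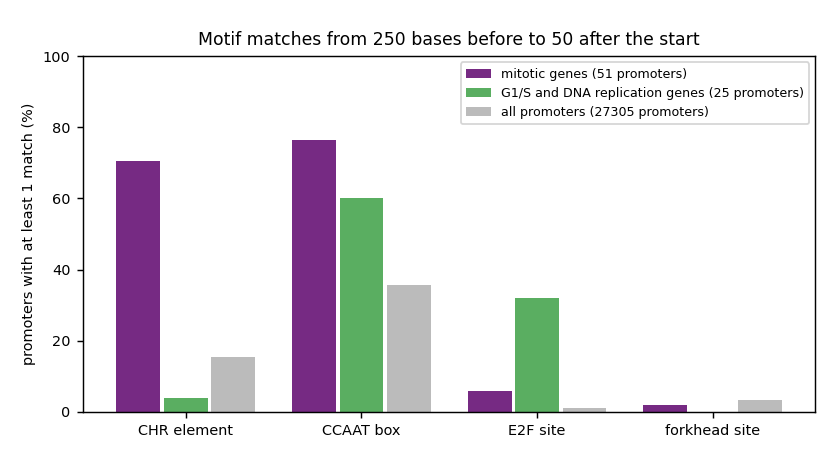
Bars give the percentage of promoters with at least 1 match to each word (y axis, percent; x axis, the 4 words) among 51 mitotic genes, 25 G1/S and DNA replication genes and all 27305 promoters. TTTGAA was found in 70.6% of the mitotic promoters and in 4.0% of the G1/S promoters.

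The 6 windows printed here are the 200 bases before the start of those genes with full values below that hold TTTGAA before the start and had the smallest adjusted p for OHT in scrambled cells. Capitals mark the CHR word and the CCAAT word on either strand; on the other strand the first reads TTCAAA and the second reads ATTGG. Each is written 5′ to 3′ on the gene's own strand.
TOP2A (chr17:40417897-40418096, minus strand): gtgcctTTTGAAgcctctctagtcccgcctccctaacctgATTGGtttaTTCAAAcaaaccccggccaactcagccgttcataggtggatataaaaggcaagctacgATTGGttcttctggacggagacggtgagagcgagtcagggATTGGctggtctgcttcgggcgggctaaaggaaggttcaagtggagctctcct
CENPA (chr2:26785856-26786055, plus strand): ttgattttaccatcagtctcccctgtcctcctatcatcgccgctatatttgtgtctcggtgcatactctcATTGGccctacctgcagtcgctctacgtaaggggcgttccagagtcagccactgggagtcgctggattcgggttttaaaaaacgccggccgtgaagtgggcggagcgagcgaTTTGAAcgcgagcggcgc
CDC20 (chr1:43358781-43358980, plus strand): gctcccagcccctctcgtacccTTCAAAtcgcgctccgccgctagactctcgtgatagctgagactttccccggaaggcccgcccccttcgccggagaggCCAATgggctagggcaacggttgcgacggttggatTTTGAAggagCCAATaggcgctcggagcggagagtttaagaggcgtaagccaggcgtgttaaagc
PRC1 (chr15:90994536-90994735, minus strand): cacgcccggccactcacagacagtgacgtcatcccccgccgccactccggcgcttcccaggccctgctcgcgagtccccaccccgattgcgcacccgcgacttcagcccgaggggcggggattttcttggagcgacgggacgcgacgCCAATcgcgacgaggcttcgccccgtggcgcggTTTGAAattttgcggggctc
ECT2 (chr3:172750526-172750725, plus strand): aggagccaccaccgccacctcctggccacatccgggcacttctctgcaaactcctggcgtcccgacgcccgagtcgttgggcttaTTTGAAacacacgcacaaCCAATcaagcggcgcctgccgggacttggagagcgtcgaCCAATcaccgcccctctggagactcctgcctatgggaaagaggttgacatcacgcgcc
CKAP5 (chr11:46846281-46846480, minus strand): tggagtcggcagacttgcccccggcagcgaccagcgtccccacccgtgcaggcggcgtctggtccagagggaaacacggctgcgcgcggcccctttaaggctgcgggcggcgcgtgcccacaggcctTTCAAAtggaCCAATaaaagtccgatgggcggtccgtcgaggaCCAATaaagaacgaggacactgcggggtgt
All 6 windows hold TTTGAA together with 1 or more CCAAT words. CENPA and PRC1 carry TTTGAA close to the start, at positions -18 and -20, and TOP2A carries it farther away, at -194 and, on the other strand, at -151. Of these 6 genes PRC1 rose with OHT in scrambled cells and the other 5 fell.

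With OHT in scrambled cells, 36 of the 59 mitotic genes fell and 9 rose, called where limma's adjusted p, by Benjamini and Hochberg's method across all 7720 genes, was under 0.05. The genes that fell most were CENPE (by 1.89 on the log2 scale), CENPA (by 1.64), TTK (by 1.46) and CDC20 (by 1.39), which act at the kinetochore, in the checkpoint and on the APC/C. PRC1, a microtubule bundler, rose most, by 0.69. Of all genes tested, 24.0% rose and 46.4% fell, so falling was common here, and the mitotic genes' median of -0.46 stood beside a median of -0.23 over all genes. With each array centred on its own median, 30 mitotic genes fell and 12 rose, and with quantile normalization 35 fell and 8 rose. Quantile normalization left 40.2% of all genes lower and 27.5% higher. In bulk RNA such as this, fewer cells in mitosis and less RNA per cell cannot be told apart. Centring moved the split of all calls from 24.0% higher and 46.4% lower to 30.7% and 32.5%.

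With OHT in both, 29 of the 59 genes were higher in knockdown than in scrambled cells and 2 were lower, against 14.7% and 8.01% of all genes tested. NCAPH, a condensin subunit, was 0.87 higher on the log2 scale, the motor KIF18B 0.76, CKAP5 0.74 and CENPE 0.72. PIMREG fell by 1.17 and CDC25B fell by 0.69. The median was 0.22 over the mitotic genes and 0.04 over all genes. Of the 36 genes that fell with OHT in scrambled cells, 22 were higher with knockdown and OHT, 1 was lower and 13 were not called. Of the 9 that rose, 4 were higher. These 2 comparisons share the scrambled arrays with OHT, so a high or low value on those arrays enters both. The same cross count over all genes was not made. The 22 of 36 is therefore not shown to be particular to mitotic genes. With arrays centred on their medians 23 were higher and 3 lower, against 11.6% and 9.48% of all genes.

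**Figure D2:**
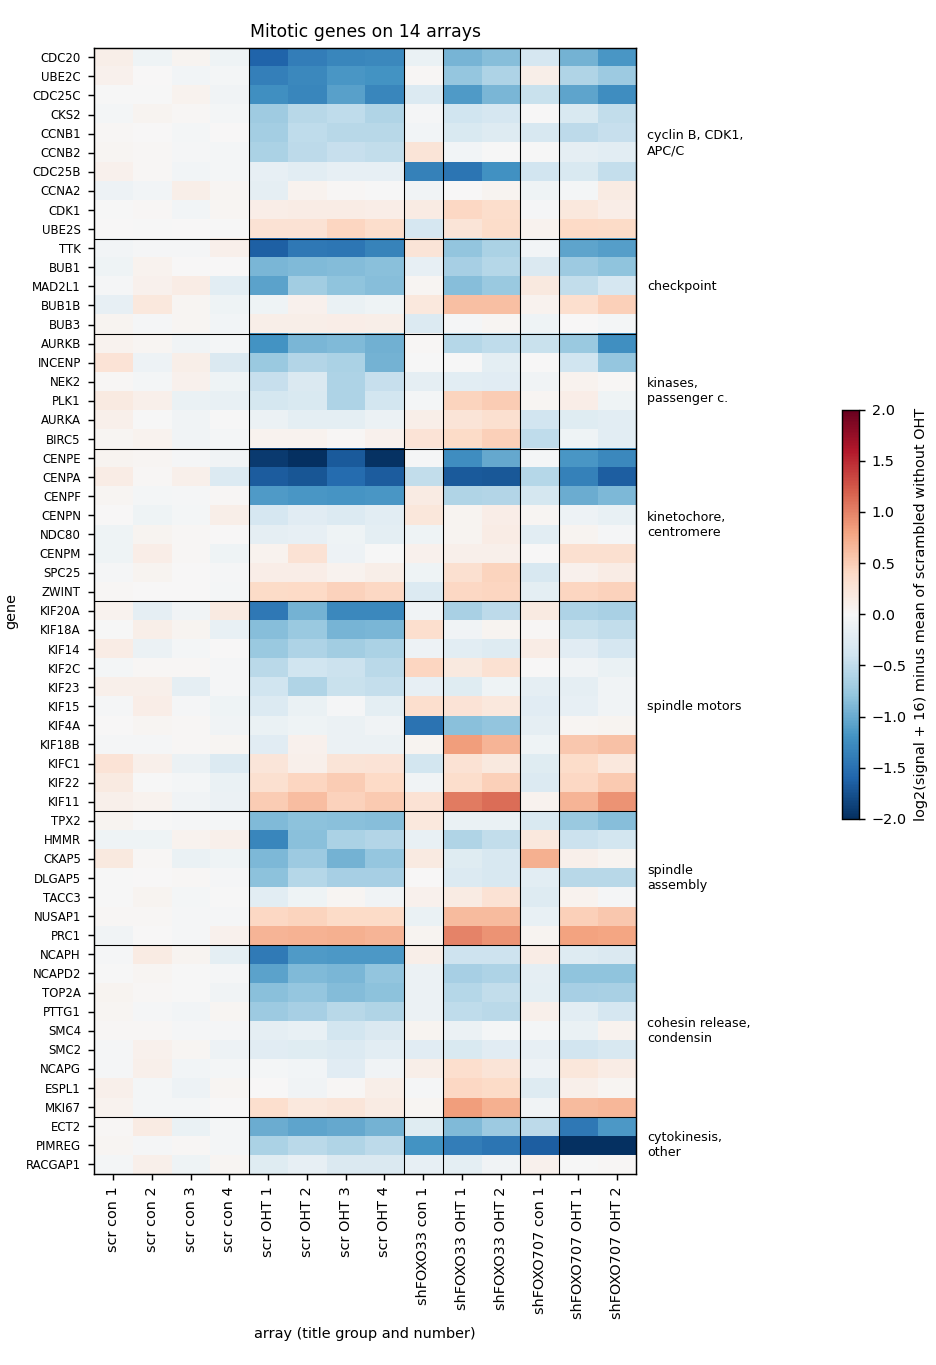
Each cell is log2(signal + 16) of 1 gene (rows, by role) on 1 of the 14 arrays (columns, by title group), minus the mean of the 4 scrambled arrays without OHT; blue is lower and red higher, and values beyond 2 take the end colour. CENPE, TTK and NCAPH are dark blue on the scrambled arrays with OHT and paler on the 4 hairpin arrays with OHT, while CENPA stays dark on both.

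Across arrays, the median mitotic gene stood 0.39, 0.30, 0.44 and 0.46 below the scrambled mean without OHT on the 4 scrambled arrays with OHT, on the log2 scale. It stood 0.13 and 0.09 below with shFOXO33 and OHT, and 0.18 and 0.20 below with shFOXO707 and OHT. The medians of the hairpin arrays thus did not overlap those of the scrambled arrays with OHT, and neither did the medians over all genes, which stood 0.22 to 0.24 below on the scrambled arrays with OHT and 0.16 to 0.19 below on the hairpin arrays with OHT. Within a group, the SD of a gene's log2 signal had a median of 0.07 over the genes on the scrambled arrays without OHT and of 0.08 on those with it.

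**Figure D3:**
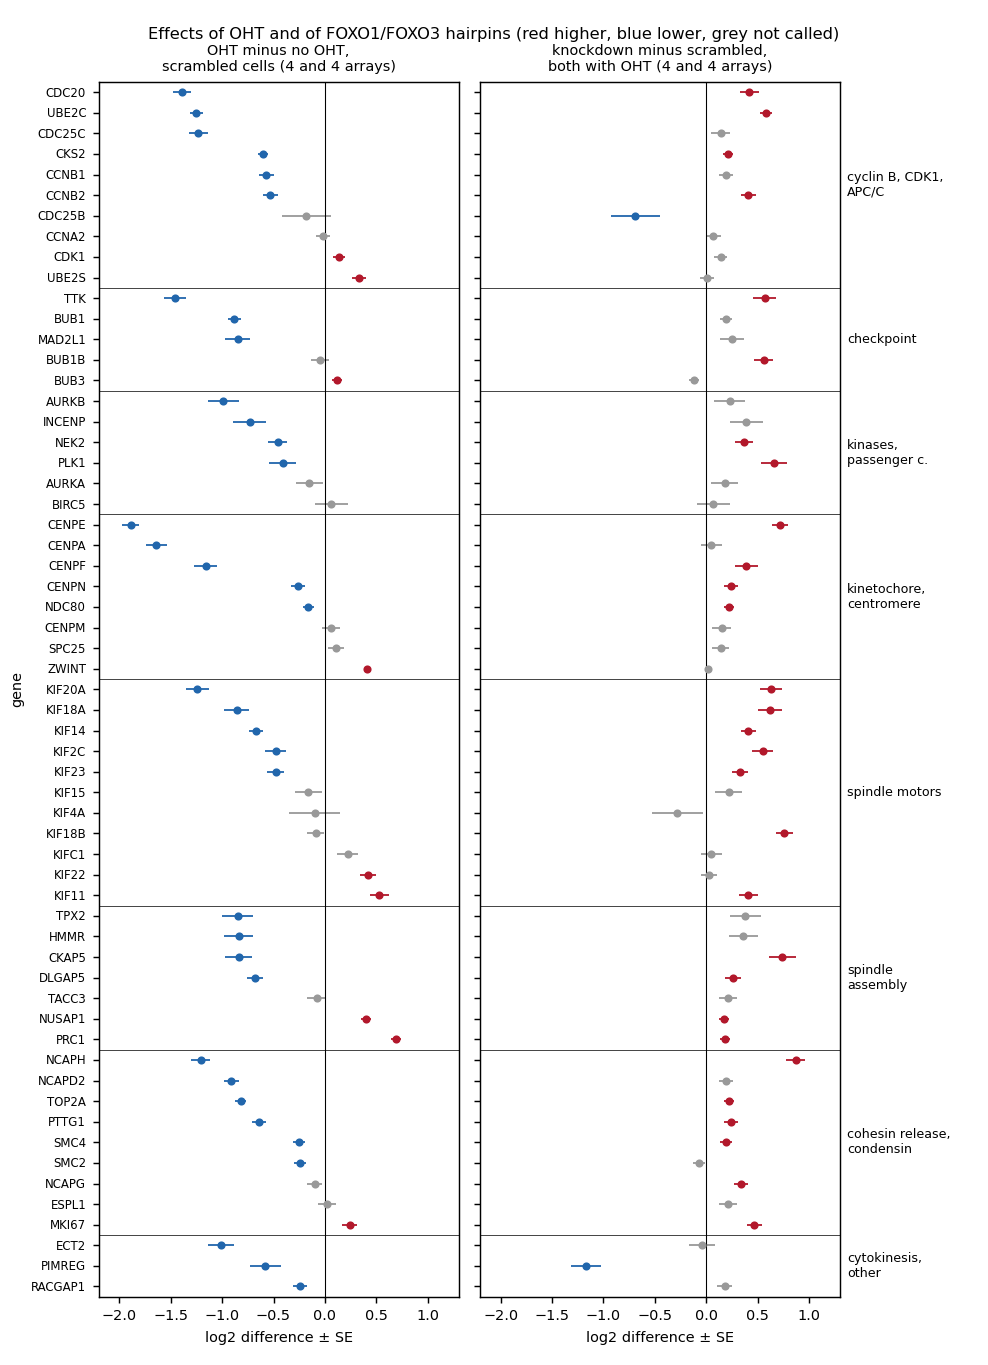
Points are log2 differences with their standard errors (x axis) for each gene (y axis, by role): OHT in scrambled cells on the left, and knockdown against scrambled with OHT on the right, 4 arrays against 4 in each panel. Left, 36 genes are blue (fell) and 9 red (rose); right, 29 are red and 2 blue.

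Among the 10 genes of cyclin B, CDK1 and the APC/C, 6 fell and 2 rose with OHT in scrambled cells. Of all genes, 46.4% fell and 24.0% rose. With knockdown and OHT, 4 were higher and 1 lower, against 14.7% and 8.01% of all genes. CCNB1 encodes cyclin B1, the partner of CDK1 at mitotic entry. Its signals were 4540, 4515, 4355 and 4511 on scrambled arrays without OHT and 2794, 3143, 3040 and 3042 with OHT, with no overlap, and it fell by 0.57 ± 0.07 (log2 ± SE, limma adjusted p = 6.41e-06). With OHT they were 3616 and 3738 with shFOXO33, above all scrambled arrays, and 3116 and 3257 with shFOXO707, which overlapped them. Pooled, the difference was 0.19 ± 0.07 and did not pass (limma adjusted p = 0.0732). Without OHT the hairpin arrays gave 4318 and 3580, both below the scrambled ones. CDK1, the kinase itself, read 6620, 6806, 6453 and 6851 without and 7358, 7406, 7388 and 7297 with OHT. The groups did not overlap, and the rise of 0.14 ± 0.06 had a limma adjusted p of 0.0487. That call was lost when any 1 of the 8 scrambled arrays was left out, or array 2 of shFOXO33 with OHT (log2 0.12 to 0.15, adjusted p from 0.0506 to 0.116), and 2 further CDK1 probe sets read 0.03 and 0.02. With OHT, CDK1 read 8954 and 8509 with shFOXO33 and 7702 and 7360 with shFOXO707, and without OHT 7467 and 6600.

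CDC20 activates the APC/C. It read 2903, 2517, 2765 and 2511 on scrambled arrays without OHT and 869, 1019, 1076 and 1081 with it, and fell by 1.39 ± 0.09 (limma adjusted p = 9.97e-09). With OHT it read 1388 and 1469 with shFOXO33 and 1376 and 1185 with shFOXO707, all above the scrambled arrays with OHT and all below those without it, and without OHT 2431 and 2111. The knockdown difference with OHT was 0.42 ± 0.09 (limma adjusted p = 0.00521). UBE2C is the ubiquitin-conjugating enzyme that starts chains for the APC/C. Its signals were 3652, 3469, 3336 and 3372 without OHT and 1323, 1411, 1535 and 1500 with OHT in scrambled cells, and fell by 1.25 ± 0.06 (limma adjusted p = 8.14e-10). Knockdown arrays with OHT read 2017 and 2250 (shFOXO33) and 2271 and 2091 (shFOXO707), between the scrambled groups, 0.58 ± 0.06 higher than scrambled (limma adjusted p = 4.5e-05), and without OHT they read 3508 and 3759, the first within and the second above the scrambled range, where both CDC20 values lay below it.

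UBE2S, which extends those chains, went the other way and rose by 0.33 ± 0.07 with OHT, with 0.01 ± 0.07 for knockdown. CDC25C, a phosphatase that activates CDK1, fell by 1.23 ± 0.09, CKS2, a CDK-binding protein, by 0.60 ± 0.05, and CCNB2, cyclin B2, by 0.53 ± 0.07. Of these, CCNB2 and CKS2 were higher with knockdown and OHT, by 0.41 ± 0.07 and 0.21 ± 0.05, and CDC25C was not called at 0.14 ± 0.09. CCNA2, cyclin A2, read -0.02 ± 0.07 with OHT on its brightest probe set, while its other probe set fell by 0.65 ± 0.10 (limma adjusted p = 0.000101). CDC25B, a second CDK1-activating phosphatase, stood apart with 1 hairpin and is shown in full for that, as chosen after its values were seen. It read 1610, 1541, 1458 and 1483 and 1355, 1317, 1355 and 1357 on scrambled arrays without and with OHT, 587 and then 539.8 and 648.5 with shFOXO33, and 1158 and then 1227 and 1087 with shFOXO707. All 3 shFOXO33 arrays were far below all others. Pooled, it fell by 0.69 ± 0.24 with OHT (limma adjusted p = 0.0496), a call lost when any 1 scrambled array or 1 shFOXO33 array with OHT was left out (-0.49 to -0.70, adjusted p from 0.0641 to 0.129).

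Of the 5 checkpoint genes, 3 fell and 1 rose with OHT in scrambled cells (46.4% and 24.0% of all genes). With knockdown and OHT, 2 were higher (14.7% of all genes). BUB1, a kinase that loads the checkpoint on kinetochores, read 1662, 1863, 1788 and 1781 without OHT and 928, 955, 961 and 980.4 with OHT. It fell by 0.88 ± 0.06 (limma adjusted p = 3.68e-08), with no overlap. Hairpin arrays with OHT read 1107 and 1191 with shFOXO33 and 1062 and 1007 with shFOXO707, above the scrambled arrays, but the difference of 0.19 ± 0.06 did not pass (limma adjusted p = 0.0539), and without OHT 1587 and 1447. TTK, also named MPS1, is the kinase at the head of the checkpoint. TTK signals were 1010, 1032, 1040 and 1132 without and 329, 382, 375 and 405 with OHT, and fell by 1.46 ± 0.11 (limma adjusted p = 4.21e-08). With OHT they were 603 and 669 with shFOXO33 and 500.1 and 484 with shFOXO707, 0.57 ± 0.11 above scrambled cells (limma adjusted p = 0.00256), and without OHT 1268 and 1015. Here too the hairpin arrays with OHT lay between the scrambled groups.

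BUB1B, or BUBR1, an inhibitor of APC/C with CDC20, followed another order. It read 1490, 1929, 1707 and 1574 and 1572, 1762, 1519 and 1577 on scrambled arrays without and with OHT, which overlapped (-0.05 ± 0.09). Hairpin arrays with OHT read 2551 and 2542 with shFOXO33 and 2113 and 2333 with shFOXO707, above every scrambled array, a difference of 0.56 ± 0.09 (limma adjusted p = 0.000696). Without OHT the hairpin arrays read 1935 and 1742, so the first was just above and the second within the scrambled range. MAD2L1, or MAD2, which binds CDC20 in the checkpoint, fell by 0.85 ± 0.12 with OHT and was not called with knockdown and OHT (0.25 ± 0.12). BUB3, the partner of BUB1 and BUBR1, rose by 0.12 ± 0.05, but of its 3 other probe sets 2 read 0.04 and -0.05 and 1 rose by 0.21. The BUB3 call was lost without any 1 of the 4 scrambled arrays with OHT or without scrambled array 2 or 4 lacking OHT (0.10 to 0.12, adjusted p from 0.0541 to 0.0938), and it was lost with quantile normalization.

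Among the 6 mitotic kinases and chromosomal passenger genes, 4 fell and 0 rose with OHT in scrambled cells (46.4% and 24.0% of all genes). With knockdown and OHT, 2 were higher (14.7% of all genes). PLK1 is the kinase of mitotic entry and centrosome maturation. Its signals were 318.5, 301, 255 and 249.7 without OHT and 214.5, 224, 176 and 214 with OHT, and it fell by 0.41 ± 0.13 (limma adjusted p = 0.0131), a call lost with arrays centred on their median (-0.22) or quantile normalization (-0.20). With OHT it read 386 and 403 with shFOXO33, above every scrambled array, and 309.5 and 262 with shFOXO707, above the scrambled arrays with OHT. That made a difference of 0.66 ± 0.13 (limma adjusted p = 0.00327), and without OHT the hairpin arrays read 273 and 288. NEK2 splits the centrosomes. It read 1568, 1491, 1639 and 1453 without and 1116, 1250, 994 and 1112 with OHT, and fell by 0.46 ± 0.09 (limma adjusted p = 0.00033). Knockdown arrays with OHT read 1319 and 1317 (shFOXO33) and 1611 and 1563 (shFOXO707), 0.37 ± 0.09 higher (limma adjusted p = 0.00821), and without OHT 1358 and 1459. The shFOXO707 arrays with OHT were thus within the range of scrambled cells that had no OHT.

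AURKB, the kinase of the chromosomal passenger complex, read 598, 586, 544 and 551 without OHT and 239, 296, 299.7 and 285 with OHT, and fell by 0.99 ± 0.15 (limma adjusted p = 3.84e-05). The hairpin arrays with OHT read 376.5 and 396.5 with shFOXO33 but 335 and 234 with shFOXO707, which overlapped the scrambled arrays, and without OHT 578 and 415.5. The pooled difference was 0.23 ± 0.15 and was not called. INCENP, the scaffold of that complex, fell by 0.73 ± 0.16 with OHT and was not called with knockdown and OHT (0.39 ± 0.16). BIRC5, or survivin, a further subunit, was 0.06 ± 0.16 with OHT, and AURKA, the spindle pole kinase, -0.15 ± 0.13. Both differed between the hairpins: BIRC5 was 0.36 ± 0.06 with shFOXO33 and OHT and -0.21 ± 0.06 with shFOXO707, and AURKA was 0.44 ± 0.05 and -0.07 ± 0.05.

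Of the 8 kinetochore and centromere genes, 5 fell and 1 rose with OHT in scrambled cells (46.4% and 24.0% of all genes). With arrays centred on their median, 3 fell and 3 rose (32.5% and 30.7% of all genes). With knockdown and OHT, 4 were higher (14.7% of all genes). CENPE, the kinetochore motor that moves chromosomes to the metaphase plate, read 1189, 1174, 1130 and 1094 without OHT and 294, 275, 346 and 278 with OHT. It fell by 1.89 ± 0.08 (limma adjusted p = 2.2e-10), the largest fall among the 59 genes in this comparison. With OHT it read 476 and 558 with shFOXO33 and 505 and 459.9 with shFOXO707, above all scrambled arrays with OHT and below all without it, a difference of 0.72 ± 0.08 (limma adjusted p = 6.74e-05). Without OHT the hairpin arrays gave 1130 and 1111, within the scrambled range.

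CENPA, the histone variant that marks centromeres, read 1265, 1163, 1225 and 945 without OHT and 348, 339.7, 384 and 349.8 with OHT, and fell by 1.64 ± 0.10 (limma adjusted p = 5.71e-09). With OHT it read 345 and 342.5 with shFOXO33 and 436 and 355 with shFOXO707, which overlapped the scrambled arrays (0.05 ± 0.10, limma adjusted p = 0.757). CENPA and CENPE therefore fell to a similar degree with OHT in scrambled cells and differed in their values for knockdown with OHT. The difference between the 2 genes was not tested. Without OHT CENPA read 804 and 765, below every scrambled array, so its knockdown cells started lower. With OHT these cells fell by 1.06 ± 0.12 for CENPA and by 1.14 ± 0.10 for CENPE. These falls were smaller than the scrambled ones by 0.58 ± 0.16 for CENPA, not called (limma adjusted p = 0.141), and by 0.75 ± 0.13 for CENPE (limma adjusted p = 0.0296). CENPF, a large kinetochore protein, fell by 1.16 ± 0.11 and was 0.39 ± 0.11 with knockdown and OHT, a call lost without either shFOXO33 array with OHT (0.34 and 0.33, adjusted p = 0.0566 and 0.0576). Its other probe set was -0.25 with OHT, not called, and 0.58 ± 0.11 with knockdown and OHT.

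CENPN, which reads CENPA nucleosomes, fell by 0.26 ± 0.07 with OHT, and by 1.10 ± 0.09 on its other probe set. The first call was lost with arrays centred on their median (-0.07, adjusted p = 0.497). NDC80, which binds microtubules, fell by 0.16 ± 0.05, a call lost without scrambled array 2 lacking OHT or array 4 with it (both -0.14, adjusted p = 0.061 and 0.0544) and turned to 0.04 by centring. With knockdown and OHT, NDC80 was 0.22 ± 0.05 and CENPN 0.24 ± 0.07, the latter lost without any 1 of the 4 scrambled or 2 shFOXO33 arrays with OHT (0.19 to 0.26, adjusted p from 0.0504 to 0.0924). ZWINT, a partner of the kinetochore protein KNL1, rose by 0.41 ± 0.03 with OHT and was 0.02 ± 0.03 with knockdown. SPC25, of the NDC80 complex, was 0.11 ± 0.08 with OHT and CENPM 0.06 ± 0.09.

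**Figure D4:**
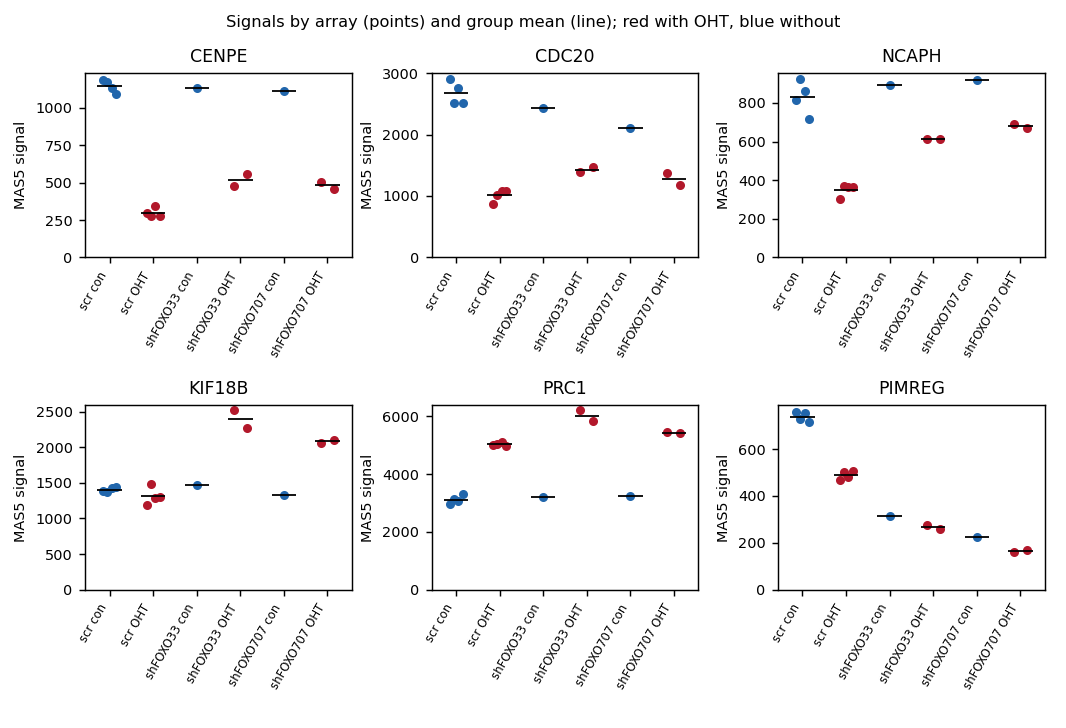
Each panel plots the MAS5 signal (y axis, linear, from 0) of 1 gene on each array by title group (x axis), with a line at the group mean; blue points are arrays without OHT and red points arrays with it. CENPE, CDC20 and NCAPH on hairpin arrays with OHT lie between the scrambled groups, KIF18B and PRC1 lie above both, and PIMREG lies below both.

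Among the 11 spindle motors, 5 fell and 2 rose with OHT in scrambled cells, near the 46.4% and 24.0% of all genes. With knockdown and OHT, 7 were higher, against 14.7% of all genes. KIF20A, a motor of the central spindle, read 1030, 869, 938 and 1117 without OHT and 355, 503, 392 and 395 with it, and fell by 1.24 ± 0.11 (limma adjusted p = 1.87e-07). In the presence of OHT it read 621 and 683 with shFOXO33 and 633 and 624 with shFOXO707, between the scrambled groups and 0.63 ± 0.11 above those with OHT (limma adjusted p = 0.00116). Without OHT it read 937 and 1111. KIF14 works with PRC1 in cytokinesis. It read 1522, 1263, 1321 and 1367 without and 808, 885, 838 and 873 with OHT, and fell by 0.67 ± 0.07 (limma adjusted p = 2.01e-06). Knockdown arrays with OHT read 1173 and 1134 (shFOXO33) and 1162 and 1083 (shFOXO707), 0.41 ± 0.07 higher (limma adjusted p = 0.00156), and without OHT 1275 and 1520. For both motors the single hairpin arrays without OHT stayed within the scrambled range.

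KIF18B, a motor that shortens astral microtubules, had another order. It read 1378, 1376, 1423 and 1436 without and 1194, 1487, 1290 and 1299 with OHT in scrambled cells, which overlapped (-0.09 ± 0.08, limma adjusted p = 0.3). In the presence of OHT it read 2524 and 2267 with shFOXO33 and 2057 and 2107 with shFOXO707, above every array of the other groups, a difference of 0.76 ± 0.08 (limma adjusted p = 3.19e-05). Without OHT the hairpin arrays read 1463 and 1326, the first just above and the second just below the scrambled range. KIF18A, its relative that damps chromosome movement, fell by 0.86 ± 0.12 with OHT and was 0.62 ± 0.12 with knockdown and OHT. KIF2C, or MCAK, a microtubule depolymerase, fell by 0.48 ± 0.10 and was 0.55 ± 0.10 with knockdown, and KIF23, of the centralspindlin complex, fell by 0.48 ± 0.08 and was 0.33 ± 0.08. KIF11, or Eg5, which pushes spindle poles apart, rose by 0.53 ± 0.09 with OHT and was a further 0.41 ± 0.09 higher with knockdown and OHT. KIF22, the chromokinesin Kid, rose by 0.42 ± 0.08, but its other probe set was -0.01 and KIF22 was 0.03 ± 0.08 with knockdown.

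KIF15, KIFC1 and KIF4A were not called in either comparison. KIF4A, a chromokinesin that acts with condensin, differed between the hairpins as CDC25B did and was chosen in the same way. It read 1606, 1636, 1628 and 1514 and 1451, 1510, 1469 and 1518 on scrambled arrays without and with OHT, 561 and then 890.3 and 913 with shFOXO33, and 1404 and then 1638 and 1657 with shFOXO707. All shFOXO33 arrays lay below all others. In the fit with 6 groups KIF4A was 0.71 ± 0.05 lower with shFOXO33 and OHT and 0.15 ± 0.05 higher with shFOXO707 and OHT.

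Of the 7 spindle assembly factors, 4 fell and 2 rose with OHT in scrambled cells (46.4% and 24.0% of all genes). With knockdown and OHT, 4 were higher (14.7% of all genes), and 1 with arrays centred on their median (11.6% of all genes). PRC1 bundles the microtubules of the central spindle. Its signals were 2961, 3129, 3052 and 3315 without and 5010, 5034, 5119 and 4981 with OHT, a rise of 0.69 ± 0.05 (limma adjusted p = 4.6e-08). With OHT they were 6223 and 5827 with shFOXO33 and 5462 and 5413 with shFOXO707, above all scrambled arrays, a difference of 0.18 ± 0.05 (limma adjusted p = 0.0223), and without OHT 3222 and 3239, within the scrambled range. NUSAP1, which links microtubules to chromatin, read 3268, 3252, 3145 and 3166 without and 4272, 4379, 4171 and 4176 with OHT and rose by 0.40 ± 0.05 (limma adjusted p = 3.01e-06). Knockdown arrays with OHT read 4998 and 5002 (shFOXO33) and 4485 and 4662 (shFOXO707), 0.17 ± 0.05 higher (limma adjusted p = 0.0182), while without OHT they read 2918 and 2898, below the scrambled arrays. Both knockdown calls depended on single arrays. PRC1 lost its call without scrambled array 1, 2 or 4 or either shFOXO33 array with OHT (0.14 to 0.18, adjusted p from 0.0506 to 0.0616), and NUSAP1 without scrambled array 3 or 4 or either shFOXO33 array with OHT (0.15 to 0.16, adjusted p from 0.051 to 0.0534).

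CKAP5, or chTOG, a microtubule polymerase, read 697, 613, 552 and 567 without OHT and 318, 358, 307 and 346 with OHT. It fell by 0.84 ± 0.13 (limma adjusted p = 5.51e-05), with no overlap. Hairpin arrays with OHT read 509 and 482 with shFOXO33 and 649 and 632 with shFOXO707, 0.74 ± 0.13 above scrambled cells (limma adjusted p = 0.00141). The shFOXO707 array without OHT, at 1005, was the highest of all 14, and the shFOXO33 array without OHT read 685. TPX2, which activates AURKA on the spindle, fell by 0.85 ± 0.15 with OHT. It was 0.72 ± 0.05 with shFOXO33 and OHT but 0.05 ± 0.05 with shFOXO707 and OHT, and pooled it did not pass (0.38 ± 0.15). HMMR fell by 0.84 ± 0.14 and DLGAP5, or HURP, by 0.68 ± 0.08. DLGAP5 was 0.26 ± 0.08 with knockdown and OHT, a call lost without scrambled array 1, 3 or 4 or either shFOXO33 array with OHT (0.21 to 0.27, adjusted p from 0.063 to 0.104). TACC3, which works with CKAP5, was -0.08 ± 0.09 with OHT.

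Among the 9 genes of cohesin release, condensin and chromosome structure, 6 fell and 1 rose with OHT in scrambled cells (4 and 1 with arrays centred). Of all genes, 46.4% fell and 24.0% rose (32.5% and 30.7% with arrays centred). With knockdown and OHT, 6 were higher (4 with arrays centred), against 14.7% of all genes (11.6% with arrays centred). NCAPH, a subunit of condensin I, read 816, 925, 860.5 and 718 without OHT and 301, 368, 364 and 362 with OHT. It fell by 1.21 ± 0.09 (limma adjusted p = 3.8e-08). The hairpin arrays with OHT read 613 and 616 with shFOXO33 and 692 and 672 with shFOXO707, between the scrambled groups, and the 0.87 ± 0.09 over scrambled cells (limma adjusted p = 2.99e-05) was the largest increase with knockdown and OHT among the 59 genes. Without OHT it read 894 and 920.3, within the scrambled range. TOP2A, the topoisomerase that untangles sister chromatids, read 5927, 5841, 5689 and 5478 without and 3213, 3358, 3149 and 3255 with OHT, and fell by 0.82 ± 0.05 (limma adjusted p = 5.41e-09). Knockdown arrays with OHT read 3839 and 4061 (shFOXO33) and 3592 and 3648 (shFOXO707), 0.22 ± 0.05 higher (limma adjusted p = 0.0067), and without OHT 5309 and 4998, below the scrambled arrays. Its other probe set fell by 0.99 ± 0.05 with OHT and was 0.22 ± 0.05 higher with knockdown.

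The other condensin genes fell less or were not called. NCAPD2 fell by 0.91 ± 0.07, SMC4 by 0.25 ± 0.06 and SMC2 by 0.24 ± 0.06, the last 2 by about as much as the median of all genes (-0.06 and -0.04 and not called with arrays centred), while NCAPG was -0.10 ± 0.07. The 2 other probe sets of SMC4 disagreed, with a fall of 0.43 and a rise of 0.43. With knockdown and OHT, NCAPG was 0.34 ± 0.07 and SMC4 0.19 ± 0.06, the latter lost without any 1 of 7 arrays (0.15 to 0.19, adjusted p from 0.0518 to 0.118), namely scrambled arrays 2, 3 and 4 without OHT, scrambled arrays 3 and 4 with OHT, and array 2 of either hairpin with OHT. PTTG1, or securin, the inhibitor of separase, fell by 0.64 ± 0.07 with OHT. It was 0.24 ± 0.07 with knockdown, a call lost without scrambled array 1, 2 or 4 or either shFOXO707 array with OHT (0.17 to 0.25, adjusted p from 0.0571 to 0.10). ESPL1, separase itself, was 0.02 ± 0.09 with OHT. MKI67, the Ki-67 antigen on mitotic chromosomes, rose by 0.24 ± 0.07 and was a further 0.47 ± 0.07 higher with knockdown and OHT, and its 3 other probe sets read 0.05, 0.21 and 0.90 with OHT, of which the last was called.

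All 3 measured genes of the set of cytokinesis and other genes fell with OHT in scrambled cells (46.4% of all genes). With knockdown and OHT 1 was lower (8.01% of all genes). ECT2, which activates RhoA at the cleavage furrow, read 1287, 1421, 1159 and 1238 without OHT and 629, 602, 615 and 654 with OHT, and fell by 1.01 ± 0.13 (limma adjusted p = 9.38e-06). With OHT the hairpins lay on opposite sides of the scrambled arrays, at 681 and 766.5 with shFOXO33 and 461.5 and 568 with shFOXO707, and without OHT at 1074 and 882. Pooled, the difference was -0.04 ± 0.13. PIMREG, a mitotic protein also known as FAM64A, read 758, 729, 753 and 715 without and 468, 503, 483 and 507 with OHT in scrambled cells, and fell by 0.58 ± 0.15 (limma adjusted p = 0.00407). It was lower on every hairpin array, at 313 with shFOXO33 and 224 with shFOXO707 without OHT, and at 274 and 258 and 159 and 168.5 with it. With knockdown it fell by 1.43 ± 0.19 without OHT (limma adjusted p = 0.000563) and fell by 1.17 ± 0.15 with OHT (limma adjusted p = 0.000178). RACGAP1, the partner of KIF23, fell by 0.24 ± 0.07 with OHT, near the median of all genes (-0.05 and not called with arrays centred). With knockdown and OHT it was not called (0.18 ± 0.07).

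Without OHT, the number of genes called for knockdown depended on how the hairpins were fitted. With both pooled, PIMREG fell, CENPA fell by 0.53 ± 0.12 (limma adjusted p = 0.0176) and ZWINT by 0.24 ± 0.04 (limma adjusted p = 0.00385), and 0 of the 59 genes rose, against 4.84% of all genes that rose and 2.97% that fell. With shFOXO33 alone 10 genes were higher and 8 lower, against 14.6% and 14.7% of all genes, and with shFOXO707 alone 1 and 19, against 14.3% and 12.7%. The fit with 6 groups gave 2 and 16, against 15.4% and 15.3% of all genes. These fits leave the spread between hairpins out of the error. On both hairpin arrays 17 of the 59 genes lay below every scrambled array and 0 above, against 12.8% and 17.9% of all genes. The CENPA call was lost without either hairpin array (-0.57 and -0.50, adjusted p = 0.0515 and 0.0797). The median over the mitotic genes was -0.08, and 0.02 over all genes. This comparison rests on 1 array per hairpin, and leaving out the shFOXO707 array raised the number that fell to 6, while leaving out the shFOXO33 array gave 1 gene that rose.

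In knockdown cells 23 of the 59 genes fell with OHT and 16 rose, against 37.3% and 20.6% of all genes. The median was -0.11, beside -0.20 over all genes. With arrays centred on their median 16 were lower and 20 higher, against 25.5% and 26.2% of all genes. CENPE fell by 1.14 ± 0.10 and CENPA by 1.06 ± 0.12, and PRC1 and KIF11 rose by 0.82 ± 0.06 and 0.75 ± 0.12. Leaving out 1 array ended the call of 13 of these genes. AURKB (-0.32), BUB3 (0.08), CCNB2 (-0.10), DLGAP5 (-0.21) and KIF18A (-0.27) lost it without the shFOXO33 array lacking OHT. BUB1B (0.30), CDK1 (0.12), CKAP5 (-0.27), ESPL1 (0.25), HMMR (-0.33), KIF14 (-0.16), NCAPG (0.12) and NDC80 (0.15) lost it without the shFOXO707 array lacking OHT.

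The response to OHT was compared directly by the interaction, which takes the OHT difference of scrambled cells from that of knockdown cells. It was above 0 for all 59 mitotic genes, with a median of 0.34 and a range of 0.06 to 0.77, while 4255 of the 7720 genes tested were above 0, with a median of 0.03. All these values share the same arrays, among them 1 array per hairpin without OHT, so the 59 are not independent readings. Low values on those arrays also raise the interaction. The median knockdown difference of the mitotic genes was -0.08 without OHT and 0.22 with it. The interaction passed for 3 genes, KIF18B (0.77 ± 0.12, limma adjusted p = 0.0243), CENPE (0.75 ± 0.13, limma adjusted p = 0.0296) and NCAPH (0.73 ± 0.14, limma adjusted p = 0.0476), and for 0 in the other direction, against 0.0777% and 0.272% of all genes. CDC20 had 0.65 ± 0.14 (limma adjusted p = 0.0721), TOP2A 0.37 ± 0.08 and UBE2C 0.50 ± 0.10. The 3 calls were close to the threshold: CENPE lost its call without any 1 of 10 arrays, KIF18B of 8 and NCAPH of 13, with log2 values of 0.67 to 0.78 throughout and adjusted p up to 0.106. Leaving out scrambled array 1 or 3 without OHT, scrambled array 1 or 4 with OHT, the shFOXO707 array without OHT or shFOXO33 array 2 with OHT brought the count from 3 to 0. In the fit with 6 groups, which leaves the spread between the hairpins out of the error, 34 genes passed, against 4.96% of all genes.

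The hairpins were then set apart. With OHT, 41 genes were higher and 4 lower with shFOXO33 than with the scrambled hairpin (27.8% and 21.5% of all genes), with a median of 0.29. With shFOXO707, 31 were higher and 5 lower (24.6% and 17.2% of all genes), with a median of 0.15. The same 4 scrambled arrays served both, and 25 genes were higher with both hairpins. The share of all genes higher with both was not counted, so the 25 are not shown to be particular to mitotic genes. PIMREG, CDC25B and BUB3 were lower with both. NCAPH was 0.79 ± 0.10 and 0.94 ± 0.10 with shFOXO33 and shFOXO707, CENPE 0.76 ± 0.09 and 0.67 ± 0.09, UBE2C 0.56 ± 0.07 and 0.59 ± 0.07, and KIF20A 0.65 ± 0.12 and 0.60 ± 0.12. KIF4A and BIRC5 had opposite calls with the hairpins. The shFOXO707 arrays with OHT are those with the higher ACTB ratio; with shFOXO33 alone as the knockdown, 42 genes were higher and 4 lower (27.9% and 21.6% of all genes).

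**Figure D5:**
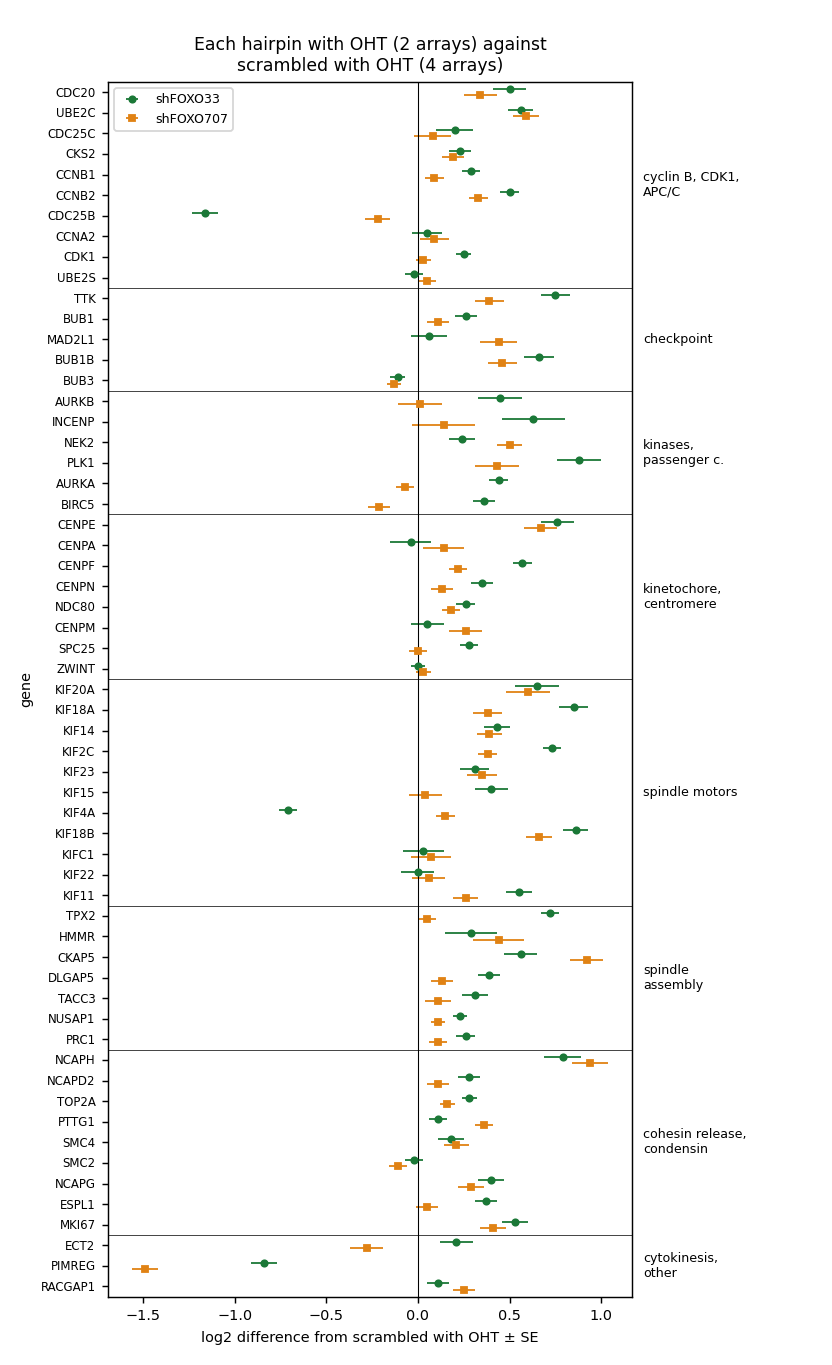
Points are log2 differences from scrambled cells with OHT, with standard errors (x axis), for each gene (y axis, by role), green circles for shFOXO33 and orange squares for shFOXO707. Most points of both hairpins lie right of 0, KIF4A and BIRC5 have the hairpins on opposite sides, and PIMREG lies left of 0 with both.

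Tested against each other with OHT, 6 genes were higher and 22 lower with shFOXO707 than with shFOXO33 (22.1% and 21.4% of all genes). TPX2 was 0.67 ± 0.05 lower (limma adjusted p = 5.48e-08), PIMREG 0.65 ± 0.08 lower, BIRC5 0.57 ± 0.07 lower and AURKA 0.51 ± 0.06 lower. CDC25B was 0.95 ± 0.08 higher (limma adjusted p = 1.81e-07), KIF4A 0.86 ± 0.06 higher, MAD2L1 0.38 ± 0.12 higher and CKAP5 0.36 ± 0.11 higher. Leaving out array 1 of shFOXO707 with OHT brought the 6 to 3. For CENPE the hairpins differed by -0.09 ± 0.11, with a 95% interval from -0.32 to 0.13, and for UBE2C by 0.03 ± 0.08, with an interval from -0.13 to 0.19. The ACTB ratio was 2.04 and 1.95 on the shFOXO707 arrays with OHT and 1.63 and 1.6 on those of shFOXO33. FOXO3 stood at 45.1% and 17.1% of the scrambled mean. Hairpin, RNA integrity and depth of knockdown therefore cannot be told apart in this comparison.

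Other genes of the same pathways were read from lists fixed with these 60. Of 16 further kinetochore and centromere genes that passed the filter, 8 fell and 2 rose with OHT in scrambled cells. Of all genes, 46.4% fell and 24.0% rose. With knockdown and OHT 4 were higher, against 14.7% of all genes. NSL1, of the MIS12 complex, fell by 1.12 ± 0.06 and was 0.46 ± 0.06 with knockdown, and HJURP, which loads CENPA, fell by 0.48 ± 0.06. OIP5 rose by 0.55 ± 0.11 and CENPC by 0.17 ± 0.07. Among 27 other mitotic genes 14 fell and 6 rose, beside the same 46.4% and 24.0% of all genes. With knockdown and OHT 11 were higher and 0 lower, with a median of 0.25, against 14.7% and 8.01% of all genes. PSRC1, a spindle protein, fell by 2.02 ± 0.10 and was 0.73 ± 0.10 with knockdown, and ASPM, a spindle pole protein, fell by 1.53 ± 0.11 and was 0.55 ± 0.11. GTSE1 and CCNF rose by 0.49 ± 0.10 and 0.49 ± 0.12.

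Among 9 APC/C subunits and regulators 5 fell and 1 rose with OHT in scrambled cells (46.4% and 24.0% of all genes). With knockdown and OHT 1 was higher (14.7% of all genes). The subunits CDC27 and CDC16 fell by 1.20 ± 0.08 and 0.85 ± 0.07, and FBXO5, the inhibitor EMI1, rose by 0.46 ± 0.16. Of 10 subunits and regulators of cohesin, the complex that holds sister chromatids from S phase on, 5 rose and 3 fell, beside 24.0% and 46.4% of all genes. PDS5A rose by 1.25 ± 0.04 and PDS5B by 0.55 ± 0.08, and SMC1A and STAG1 fell by 0.55 ± 0.07 and 0.82 ± 0.11. With knockdown and OHT 2 of the 10 were higher, against 14.7% of all genes.

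Of 15 regulators of mitotic transcription, 5 fell and 4 rose with OHT in scrambled cells (4 and 5 with arrays centred). Of all genes, 46.4% fell and 24.0% rose (32.5% and 30.7% with arrays centred). FOXM1, the forkhead activator of G2/M genes, fell by 0.42 ± 0.13 (limma adjusted p = 0.012). With knockdown and OHT it was not called (0.33 ± 0.13, limma adjusted p = 0.0931). MYBL2, or B-MYB, was called in neither comparison (0.13 ± 0.16 and 0.28 ± 0.16). CDKN1A, the CDK inhibitor p21, was -0.03 ± 0.06 with OHT, and with knockdown it fell by 0.66 ± 0.07 without OHT (limma adjusted p = 8.33e-05) and by 0.29 ± 0.06 with OHT (limma adjusted p = 0.00273). LIN37, a MuvB subunit, fell by 1.38 ± 0.12 and NFYC, a subunit of the factor that binds CCAAT, by 0.70 ± 0.10, while NFYB rose by 1.41 ± 0.12 and RBBP4 by 0.54 ± 0.06. The 29 G1/S and DNA replication genes divided evenly, with 9 that rose and 9 that fell and a median of 0.01. With arrays centred, 13 rose and 6 fell. The shares of all genes are those given for the regulators. CCNE2, cyclin E2, rose by 2.91 ± 0.06 and SLBP, the histone mRNA binder, by 2.22 ± 0.05, more than any of the 59 mitotic genes, and PRIM1 and MCM2 fell by 0.64 ± 0.08 and 0.49 ± 0.06. With knockdown and OHT, 2 of the 29 were higher and 1 lower, with a median of 0.07. Beside these stood 29 and 2 of the 59 mitotic genes, and 14.7% and 8.01% of all genes. The difference between the lists was not tested.

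TTTGAA was spread over genes that went different ways. It occurred in 21 of 31 matched promoters of genes that fell with OHT in scrambled cells (67.7%), in 6 of 8 of those that rose (75.0%) and in 8 of 11 of those not called (72.7%). Among genes higher with knockdown and OHT it occurred in 21 of 27 (77.8%), and in 14 of 22 of those not called (63.6%). The E2F words occurred in 0 of the 31 promoters of genes that fell, in 2 of the 8 of genes that rose (CDK1 and NUSAP1) and in 1 of the 11 of genes not called (KIF15). The call of CDK1 was lost in 13 of the 24 alternatives run.

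For 19 of the 59 genes, 27 further probe sets passed the filter and gave second readings of the same RNA. Of 20 that belonged to genes called with OHT in scrambled cells, 17 had the sign of the brightest probe set and 3 the opposite sign (BUB3, SMC4 and KIF22). Of 12 that belonged to genes called with knockdown and OHT, all 12 had the same sign.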

How the data were processed

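Total RNA from 14 samples was measured on 14 arrays, 1 per sample. The authors deposited 1 intensity per probe set and array, which the submitters' processing notes credit to MAS5, with no version named. The mean of each array without its lowest and highest 2% of probe sets was 500, so the deposited values were taken as scaled and were not scaled again. Of 22277 probe sets, 62 were controls, 19064 named 1 gene, 1043 several and 2108 none, by the platform annotation, and only those naming 1 gene were used. Symbols were updated through Entrez identifiers for 19052 of them (RefSeq, GRCh38.p14).

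Intensities were transformed as log2(signal + 16), so that fold changes of dim genes are understated. Probe sets above the 40th percentile of mean log2 signal (6.57, a signal of 79.1) were kept, 11438 in all, and the brightest 1 per gene gave 7720 genes. Differences were fitted with limma 3.58.1 in R 4.3.3 (eBayes with a trend) over all 14 arrays in 4 groups, with the hairpins pooled, and each hairpin was tested in a fit with 6 groups. Since 2 arrays of 1 hairpin entered as 2 replicates, knockdown may be called in too many genes. Tests were two-sided, and calls had a Benjamini-Hochberg adjusted p under 0.05 over all 7720 genes. The fit was tested on simulated data with independent noise on each array and shifts only on scrambled arrays with OHT. Those data held no spread between hairpins, so they cannot show how that spread affects the knockdown calls. Precision is limited by the number of arrays.

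The genes, their roles and the pathway lists were chosen with earlier results of these data known. Values on every array are given for the 2 genes of each role with the smallest adjusted p for OHT in scrambled cells, the 1 with the smallest for knockdown with OHT, and CCNB1, CDK1 and PLK1, and also for CDC25B and KIF4A, chosen after their values were seen because the hairpins differed. Of the other lists, at most 2 genes each way are named, by the smallest adjusted p for OHT in scrambled cells, with FOXM1, MYBL2 and CDKN1A. Arrays with the same replicate number did not deviate together (r from -0.06 to 0.07), and the main fits did not pair them. These values alone cannot exclude a pairing. Alternatives were another pseudocount, no filter, median centring, quantile normalization, probe sets averaged, no variance trend, 6 groups, each hairpin alone, a replicate block, and leaving out each array.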

Additional observations from a re-analysis of the deposited data

Results flagged for a closer look

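On array 3 of scrambled cells without OHT, CCNB1 had a signal of 4350, apart from the other 3 arrays of its group at 4510 to 4540. On array 1 of scrambled cells with OHT, NCAPH had a signal of 301, apart from the other 3 at 362 to 368. The test for a sample apart from its group was run in 44 groups of 4 arrays, and chance gives about 1 in 20 such groups, so 2 of 44 is near what chance gives.

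The response to OHT was called different between knockdown and scrambled cells, by limma's interaction term, for CENPE (0.75 on the log2 scale), KIF18B (0.77) and NCAPH (0.73). In each the response in knockdown cells was the higher one. CENPE and NCAPH fell with OHT in both kinds of cell and fell less in knockdown cells, while KIF18B rose with OHT in knockdown cells and was not called in scrambled cells.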

How the results depend on the processing

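With OHT in scrambled cells, the counts of mitotic genes that fell and rose stayed within 1.5 times the reported 36 and 9 under every alternative run, and from 35 to 36 and from 7 to 9 without any 1 array. With knockdown and OHT, 23 to 33 genes were higher and 1 to 3 lower without any 1 array. The 2 lower genes became 1 with a pseudocount of 1, with no filter on low values, with no trend in the variance prior or with the replicate block, 4 in the fit with 6 groups or with shFOXO33 alone, and 5 with shFOXO707 alone. With the replicate block, 20 genes were higher with knockdown and OHT, and 8 rose and 36 fell with OHT in scrambled cells. Without OHT, where 0 genes were higher and 3 lower with knockdown, the fit with 6 groups gave 2 and 16, shFOXO33 alone 10 and 8, and shFOXO707 alone 1 and 19; without any 1 array the ranges were 0 to 1 and 2 to 6. The interaction passed for 5 genes with probe sets averaged, 34 with 6 groups, 28 with shFOXO33 alone, 24 with shFOXO707 alone, and 0 to 3 without any 1 array, with 0 to 0 in the other direction. For OHT in knockdown cells, 12 to 17 rose and 19 to 25 fell. With shFOXO33 and OHT the ranges were 35 to 42 higher and 3 to 4 lower. With shFOXO707 and OHT they were 23 to 33 and 2 to 5, and 3 were lower with probe sets averaged. Between the hairpins they were 3 to 7 higher and 15 to 24 lower with shFOXO707. Single genes turned in sign with 1 hairpin alone: BIRC5 (-0.21) and KIF4A (0.15) with shFOXO707, and ECT2 (0.21) with shFOXO33, for knockdown with OHT, and BIRC5 (0.27), CENPF (0.17) and TPX2 (0.21) with shFOXO33 for knockdown without OHT. With arrays centred on their median, NDC80 turned to 0.04 for OHT in scrambled cells. The fits with 6 groups and with 1 hairpin leave the spread between hairpins out of the error; for the other changes the cause was not tested. With no detection calls used, signals near the filter of 79.1 can hold background.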
